A study of Rattus norvegicus with 15 samples.

Results

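The transcripts described here encode the subunits of the mitochondrial respiratory chain and of ATP synthase, in islet cells of young rats that had received a miR-17-5p mimic or a control mimic. Members were chosen by gene symbol alone: names that begin with Nduf and a subunit letter (complex I), Sdha to Sdhd (complex II), names that begin with Uqcr (complex III), Cycs (cytochrome c), Cox followed by a digit from 4 to 8 (complex IV) and names that begin with Atp5 (complex V). The rule found 81 of the 17055 genes in the count tables, of which 35 fell to complex I, 4 to complex II, 7 to complex III, 1 to cytochrome c, 17 to complex IV and 17 to complex V. Islets of 10-day-old Sprague-Dawley rats had been dispersed into cells and transfected. RNA bound to Ago2 was recovered from these cells with an antibody and sequenced as RISC libraries, and poly(A) RNA gave the mRNA libraries. RISC libraries are named for the RNA-induced silencing complex that Ago2 forms with a microRNA. There were 4 miR-17-5p RISC libraries, 3 control RISC libraries, 5 miR-17-5p mRNA libraries and 3 control mRNA libraries, 15 in all. Cells of every group came from the same strain, age and tissue and had all been dispersed and transfected, so the groups differ in the mimic and in the kind of RNA sequenced, and the design holds no untransfected cells. The sources used here do not say what share of cells took up a mimic or how many animals stand behind a library. Islets hold several endocrine cell types and some non-endocrine cells, and in such bulk samples fewer cells of a type and less RNA per cell cannot be told apart.

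The respiratory chain passes electrons from NADH through complex I and from succinate through complex II to ubiquinone, then through complex III and cytochrome c to complex IV, which reduces oxygen. The protons pumped on the way drive complex V, the ATP synthase. In pancreatic beta cells the ATP made from glucose closes potassium channels, which depolarises the cell and triggers insulin release, so these enzymes link glucose to secretion. Most subunits are made from nuclear genes, and the few made from mitochondrial DNA were not among the genes of the tables analysed here. The rule is one of names and has limits. Cox4nb is an alias of Emc8, a subunit of a membrane protein complex of the endoplasmic reticulum, Atp5s and Atp5sl are aliases of the assembly-related genes Dmac2l and Dmac2, and Cox6c-ps1 is named as a pseudogene. Ndufa4 is counted here with complex I by its name, although the protein is known as a subunit of complex IV. The rule leaves out Cyc1, the cytochrome c1 of complex III, and Ndufab1, an acyl carrier protein of complex I, whose values are given separately.

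The mimic carries the seed that recruits Ago2 to targets, so its mature sequence is shown with those of the other rat miRNAs that share the seed. Bases 2 to 8, the seed AAAGUGC, are in capitals, and sequences are from RefSeq on GRCr8. Among 724 mature entries 6 held this seed, under 5 names. The mature rno-miR-17-5p sequence lies at chr15:98587861-98587883 on the plus strand in Mir17, and the same 23 bases lie at chrX:137343615-137343637 on the minus strand in Mir106a. The others lie at chr15:98588318-98588340 (plus strand, miR-20a-5p), chr12:22156894-22156916 (minus, miR-93-5p), chr12:22157103-22157123 (minus, miR-106b-5p) and chrX:137343239-137343261 (minus, miR-20b-5p).
rno-miR-17-5p: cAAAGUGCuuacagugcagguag
rno-miR-20a-5p: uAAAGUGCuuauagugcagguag
rno-miR-93-5p: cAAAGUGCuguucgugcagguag
rno-miR-106b-5p: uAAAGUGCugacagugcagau
rno-miR-20b-5p: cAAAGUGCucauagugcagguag
Transcript sequences of the members were not used here, so no site for this seed was looked for in them.

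All 81 members were matched to 1 RefSeq gene each on GRCr8, 63 by symbol and 18 by an older name, on 19 chromosomes. Of these, 69 had a promoter window of 250 bases before to 50 bases after the start. Nuclear genes of the chain are known to share binding sites for the factors NRF1, GABP and YY1 near their starts, and 3 short motifs were counted on both strands. GCATGCGC, the core of the NRF1 site, was in 10 of 69 member windows (14.5%) and in 2.66% of all 27457 windows. CCGGAAGT, an ETS site of the kind GABP binds, was in 7 member windows (10.1%) and in 4.01% of all windows. AAGATGGC, the core of the YY1 site, was in 15 member windows (21.7%) and in 3.44% of all windows. At least 1 of the 3 was in 27 member windows (39.1%) and in 9.42% of all windows, and none of these counts depends on the libraries. A window with 1 of the motifs in capitals is shown for each of 3 members whose values are described in detail below: Cycs, the electron carrier, at chr4:80984718-80985017 on the minus strand, Atp5a1, the alpha subunit of ATP synthase, at chr18:73567287-73567586 on the plus strand, and Ndufa4l2, the low-oxygen relative of Ndufa4, at chr7:65241919-65242218 on the plus strand. In the Atp5a1 window the ETS motif reads as its reverse complement.
Cycs: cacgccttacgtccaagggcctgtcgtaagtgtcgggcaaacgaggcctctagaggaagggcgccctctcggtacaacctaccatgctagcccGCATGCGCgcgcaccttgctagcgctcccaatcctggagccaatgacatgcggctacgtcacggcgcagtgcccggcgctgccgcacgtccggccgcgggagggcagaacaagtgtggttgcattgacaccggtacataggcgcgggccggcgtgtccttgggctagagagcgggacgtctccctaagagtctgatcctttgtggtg
Atp5a1: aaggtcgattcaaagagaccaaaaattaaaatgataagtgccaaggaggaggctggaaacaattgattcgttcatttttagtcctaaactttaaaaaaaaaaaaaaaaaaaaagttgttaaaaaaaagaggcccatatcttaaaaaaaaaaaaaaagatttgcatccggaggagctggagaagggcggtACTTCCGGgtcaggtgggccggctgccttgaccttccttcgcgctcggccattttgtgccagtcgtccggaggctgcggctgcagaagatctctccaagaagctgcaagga
Ndufa4l2: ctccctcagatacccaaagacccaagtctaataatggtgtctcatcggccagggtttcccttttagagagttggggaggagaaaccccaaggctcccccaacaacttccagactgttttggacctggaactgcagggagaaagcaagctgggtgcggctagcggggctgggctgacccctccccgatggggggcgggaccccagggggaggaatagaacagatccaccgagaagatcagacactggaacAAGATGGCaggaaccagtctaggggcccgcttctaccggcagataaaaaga

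Total counts were 7819020 to 12733872 in miR-17-5p RISC libraries and 4185123 to 13420403 in control RISC libraries, and 5870265 to 21056240 in miR-17-5p mRNA libraries and 3379456 to 10207925 in control mRNA libraries. The insulin genes Ins1 and Ins2, which mark beta cells, took 0.947% to 1.97% of the counts of RISC libraries and 26.2% to 41.8% of those of mRNA libraries. RISC and mRNA libraries were made by different routes, so a difference between them is one of both the RNA and its preparation. Markers of other cells differed between the transfections: summed counts per 1000000 (CPM) of the 11 stellate and fibroblast markers were 25980 to 28920 in miR-17-5p RISC libraries and 4631 to 10610 in control RISC libraries. In mRNA they were 17160 to 38820 with miR-17-5p and 9366 to 16430 with the control mimic, and Col1a2 was at 0 in every library. The 8 macrophage and leukocyte markers summed to between 247 and 358 CPM in RISC libraries of miR-17-5p cells and to between 0.188 and 88.6 CPM in those of control cells, Aif1 being at 0 in the miR-17-5p RISC libraries and Cd14 and Emr1 in the control ones. Some lists ran the other way. In mRNA, endothelial markers summed to 23.96 to 73.4 CPM with miR-17-5p and 76.75 to 114.9 with the control mimic. Red blood cell markers in mRNA summed to 2.698 to 8.752 and 18.01 to 69.86 CPM in that order. Acinar markers in RISC summed to 0.5459 to 12.76 and 26.42 to 48.35 CPM in that order. These lists overlapped between the mimics in the other kind of library, and duct markers in both kinds. The part of all these markers in the results below was not tested. The control RISC libraries stood apart from all others in how few genes they held: 5589, 7201 and 7424 genes had a count, against 9040 to 10753 in miR-17-5p RISC libraries and 11142 to 12997 in mRNA libraries of both transfections.

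Members made up a far smaller share of the RISC libraries than of the mRNA libraries, and a similar share with either mimic. In RISC, member counts per 1000000 of all counts were 1482 ± 101 with miR-17-5p (SD, n = 4) and 1750 ± 494 with the control mimic (SD, n = 3). In mRNA they were 6632 ± 858 with miR-17-5p (SD, n = 5) and 6195 ± 489 with the control mimic (SD, n = 3). With the insulin genes and the ribosomal RNA precursor Rn45s, which took 23.6% to 42.6% of RISC counts, left out of the totals, the counts per 1000000 were 2218 ± 344 and 2482 ± 456 in miR-17-5p and control RISC libraries, and 11097 ± 865 and 11398 ± 4.34 in miR-17-5p and control mRNA libraries. Each difference between the mimics was smaller than the larger SD of its pair, and the mRNA shares of every library lay above those of every RISC library. Averaged over the 76 members tested in mRNA on the log2 CPM scale, with 2 counts added, levels were 5.83 ± 0.10 in miR-17-5p mRNA and 5.74 ± 0.06 in control mRNA. Raw counts, which also grow with transcript length, were highest for Atp5b, the catalytic beta subunit of ATP synthase, in all 8 mRNA libraries and in 3 of 4 miR-17-5p RISC libraries, and for Atp5a1 in the other. In control RISC the member with the most counts differed each time, being Atp5g1, Sdha and Ndufa4 in libraries 1, 2 and 3.

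**Figure D1:**
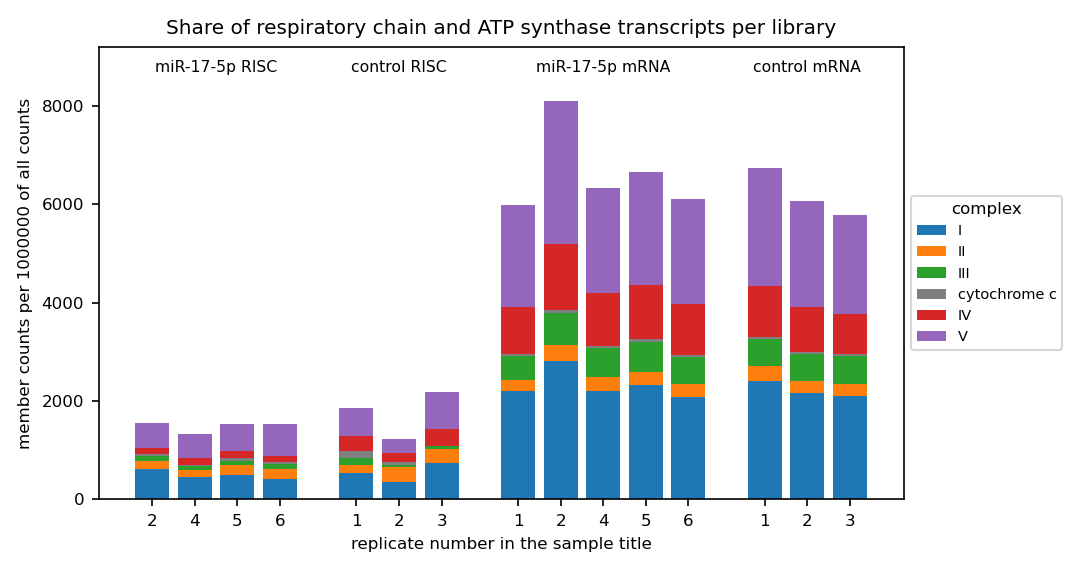
Member counts per 1000000 of all counts in each library, stacked by complex, in the 4 groups (x axis: replicate number in the sample title). The RISC libraries reach 1215 to 2188 and the mRNA libraries 5783 to 8096, and complex I and complex V make up most of every bar.

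In mRNA libraries the miR-17-5p mimic left no member past the threshold. The test was edgeR's quasi-likelihood test over all genes, and a gene was called at a Benjamini-Hochberg adjusted p under 0.05. By this test 0 of 76 members tested were called, where 3.87% of all 11077 genes tested were. An unadjusted p under 0.05 was found for 6 of the 76 members and for 2100 of the 11077 genes. The number called was 1 with the Wald test of DESeq2, with no filter, with a mean of at least 50 counts and without miR-17-5p library 1, and that member was Ndufa5 each time. It was 0 with limma-voom and with any other single library left out. Fitted fold changes, miR-17-5p over control, had a median of 0.07 on the log2 scale against 0.01 over all genes, and 46 of the 76 lay above 0. By complex the medians were 0.02 for I (34 tested), 0.01 for II (4), -0.03 for III (7), 0.25 for IV (14) and 0.09 for V (16). The 7 core subunits of complex I, which carry its redox centres, had a median of -0.08 and the 27 accessory subunits one of 0.08.

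The member nearest to the threshold was Ndufa5, an accessory subunit of the peripheral arm of complex I. It had 76.3, 108, 97.9, 73.7 and 63.6 CPM in miR-17-5p libraries 1, 2, 4, 5 and 6, against 60.4, 51.8 and 39.6 CPM in control libraries. Every miR-17-5p library lay above every control library, with means of 84.0 ± 18.5 and 50.6 ± 10.4 CPM (SD) and a log2 fold change of 0.72 (SE 0.20, adjusted p = 0.0585 by edgeR). Ndufb3, an accessory subunit of the membrane arm, had 45.9 to 61.3 CPM (median 54.0) in miR-17-5p libraries and 35.3 to 41.8 CPM in control libraries, and did not pass either (log2 fold change 0.49, adjusted p = 0.0963 by edgeR). Cox6c, a small subunit of complex IV, was the third member without overlap above, at 101 ± 13.9 CPM in miR-17-5p libraries and 76.0 ± 3.79 in control libraries (adjusted p = 0.121 by edgeR). Upward, such an absence of overlap was found for 3 of 76 members and for 8.51% of all genes tested. Downward it was found for 2 members and for 6.68% of genes, the members being Ndufv3, of the peripheral arm of complex I, and Atp5s, which had 27 counts over the miR-17-5p libraries and 34 over the control libraries.

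Other members near the top of their complex differed by less than the test could call. In complex IV, Cox6a1, the broadly expressed form of subunit VIa, averaged 183 ± 22.6 CPM in miR-17-5p libraries and 134 ± 31.2 in control libraries (adjusted p = 0.153 by edgeR). In complex III, Uqcrb, which binds ubiquinone, averaged 108 ± 10.0 and 86.2 ± 13.1 CPM in miR-17-5p and control libraries (adjusted p = 0.203), and Uqcr11 averaged 98.3 ± 11.0 and 119 ± 9.82 CPM (adjusted p = 0.264). In complex V, Atp5e, the epsilon subunit of the F1 stalk, averaged 148 ± 15.4 and 178 ± 20.9 CPM (adjusted p = 0.275). In complex II, Sdha, the flavoprotein that oxidises succinate, averaged 83.5 ± 4.78 and 76.7 ± 7.77 CPM (adjusted p = 0.645). Cytochrome c and the F1 subunits of ATP synthase were close between the mimics: Atp5b averaged 516 ± 51.1 and 491 ± 20.4 CPM, Atp5a1 258 ± 29.9 and 278 ± 24.4 CPM, and Cycs 48.7 ± 6.56 and 47.2 ± 4.56 CPM in miR-17-5p and control libraries. A log2 fold change that misses the threshold does not show that the 2 groups were alike.

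**Figure D2:**
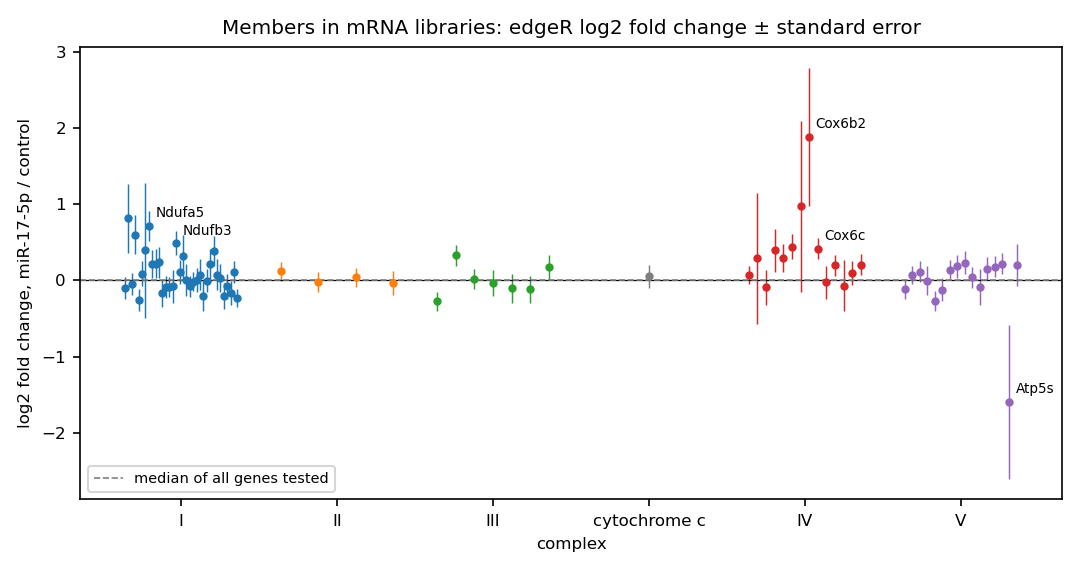
Fitted log2 fold change of each of the 76 members tested in mRNA libraries, miR-17-5p over control (y axis), by complex (x axis), with bars of 1 standard error and a dashed line at the median of all genes tested. Most points lie within 0.5 of 0, and Ndufa5, Ndufb3 and Cox6c are the members whose miR-17-5p libraries all lay above the control libraries.

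Spread between mRNA libraries was small for most members. Over members with a mean of at least 10 CPM, the median coefficient of variation was 14.5% in miR-17-5p libraries and 11.7% in control libraries, against 17.7% and 16.1% for all genes with that mean. Cox8a, the broadly expressed form of subunit VIII of complex IV, varied least in miR-17-5p libraries (3.22%). The members that varied most were Ndufa4l2 in miR-17-5p libraries (107.8%) and Cox4i2 in control libraries (67.9%), both known to respond to low oxygen. Ndufa4l2 had 1.24, 29.3, 7.78, 3.37 and 10.0 CPM in miR-17-5p libraries 1, 2, 4, 5 and 6, and 13.6, 2.98 and 6.55 CPM in control libraries. Cox4i2, the low-oxygen form of subunit IV, had 1.24, 49.9, 13.6, 14.2 and 13.5 CPM in the same miR-17-5p libraries and 25.4, 11.9 and 6.24 CPM in control libraries. Both were highest in miR-17-5p library 2 and lowest in miR-17-5p library 1, and in both genes the groups overlapped. Cox4i1, the form of subunit IV in most tissues, had 191 to 240 CPM (median 221) in miR-17-5p libraries and 193 to 229 CPM in control libraries.

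Genes around the chain showed the same lack of calls in mRNA. The counts below stand beside 3.87% of all 11077 genes called and 2100 of them at an unadjusted p under 0.05. By the same edgeR test, 0 of 29 assembly factors, 0 of 17 genes of the citric acid cycle and pyruvate dehydrogenase, 0 of 16 regulators of mitochondrial biogenesis, 0 of 10 carriers and uncoupling proteins and 0 of 68 mitochondrial ribosomal proteins were called, with 3, 2, 0, 1 and 4 of them at an unadjusted p under 0.05. Of 74 cytosolic ribosomal proteins 4 were higher, with a median log2 fold change of 0.41. Of the stellate and fibroblast markers 7 of 10 were higher (median 1.07), and of 9 endocrine markers 0 were called (median -0.58, 5 at an unadjusted p under 0.05). Lower were 2 of 8 endothelial, 1 of 3 duct and 2 of 2 red blood cell markers. Of 8 macrophage and leukocyte markers 0 were called, and of 4 acinar markers 0. Among the regulators, Nrf1 averaged 13.9 ± 4.26 CPM in miR-17-5p libraries and 13.0 ± 2.91 in control libraries, and Tfam, which maintains mitochondrial DNA, 20.2 ± 2.24 and 25.4 ± 6.73 CPM. Ppargc1a was at or under 1.51 CPM in every mRNA library, too low for the test. Cyc1 averaged 63.1 ± 10.1 CPM in miR-17-5p libraries and 73.0 ± 1.62 in control libraries, and Ndufab1 20.0 ± 7.72 and 17.1 ± 4.16 CPM.

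In RISC libraries fewer members were present with the control mimic than with miR-17-5p, and the same held for genes in general. A count was found for 62.5 ± 6.76 members per miR-17-5p RISC library (65, 54, 70 and 61 in libraries 2, 4, 5 and 6) and for 32.3 ± 7.64 per control RISC library (39, 34 and 24 in libraries 1, 2 and 3), so the groups did not overlap. Thinned to the total of the smallest of the 15 libraries the means were 61.3 and 29.4. mRNA libraries held 75 to 77 members. Of the 76 members tested in mRNA, 71.1% to 92.1% were found per miR-17-5p RISC library and 31.6% to 51.3% per control RISC library, where for all genes tested in mRNA the shares were 79.7% to 92.6% with miR-17-5p and 49.95% to 65.8% with the control mimic. In miR-17-5p RISC 46 of the 76 were present in every library (60.5%, against 73.15% of all genes tested in mRNA), and in control RISC 15 were (19.7%, against 40.0%). Members present in the mRNA fit but in no library numbered 1 of 76 in miR-17-5p RISC (1.32%, against 3.06% of all genes tested in mRNA) and 26 of 76 in control RISC (34.2%, against 20.7%).

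Control RISC libraries were patchy: many members with 100 or more counts in 1 library had 0 in another. This held for 10 of the 51 members that reached 100 counts in miR-17-5p RISC (19.6%, against 9.55% of all genes), for 27 of 42 in control RISC (64.3%, against 43.7%) and for 0 of them in mRNA. The following examples were chosen after their values were seen. Ndufa7, an accessory subunit of complex I, had 124, 0, 22 and 10 counts in miR-17-5p RISC libraries 2, 4, 5 and 6, against 508, 0 and 0 in control RISC libraries 1, 2 and 3. Sdhc, a membrane anchor of complex II, had 46, 215, 119 and 99 counts in the miR-17-5p RISC libraries and 763, 0 and 0 in the control ones. Cycs had 348, 315, 393 and 230 counts in the miR-17-5p RISC libraries and 1981, 667 and 0 in the control ones. For genes of this kind the mean of the control group rests on 1 or 2 libraries, and the test gave them no call.

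The members missing from control RISC are given here by complex, with no test between complexes, beside the 20.7% of all genes tested in mRNA that no control RISC library held. Of 34 complex I members above 0 somewhere, 17 were in no control RISC library, among them the core subunits Ndufs3, Ndufs7 and Ndufs8, and 23 were in every miR-17-5p RISC library. In complex II 0 of 4 were missing from all control RISC libraries, and 4 were in every miR-17-5p RISC library. In complex III 2 of 7 were missing (Uqcrb and Uqcrh), in complex IV 6 of 15 (Cox4i2, Cox6a2, Cox6c, Cox7a2, Cox7b and Cox8b) and in complex V 2 of 16 (Atp5o and Atp5s). The members present in every control RISC library included Ndufa4, Ndufa11 and Ndufv3 of the Nduf names, Sdha, Uqcrc1, Cox6a1, Cox7a2l, and Atp5a1, Atp5b, Atp5g1, Atp5g2, Atp5g3, Atp5h and Atp5l.

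**Figure D3:**
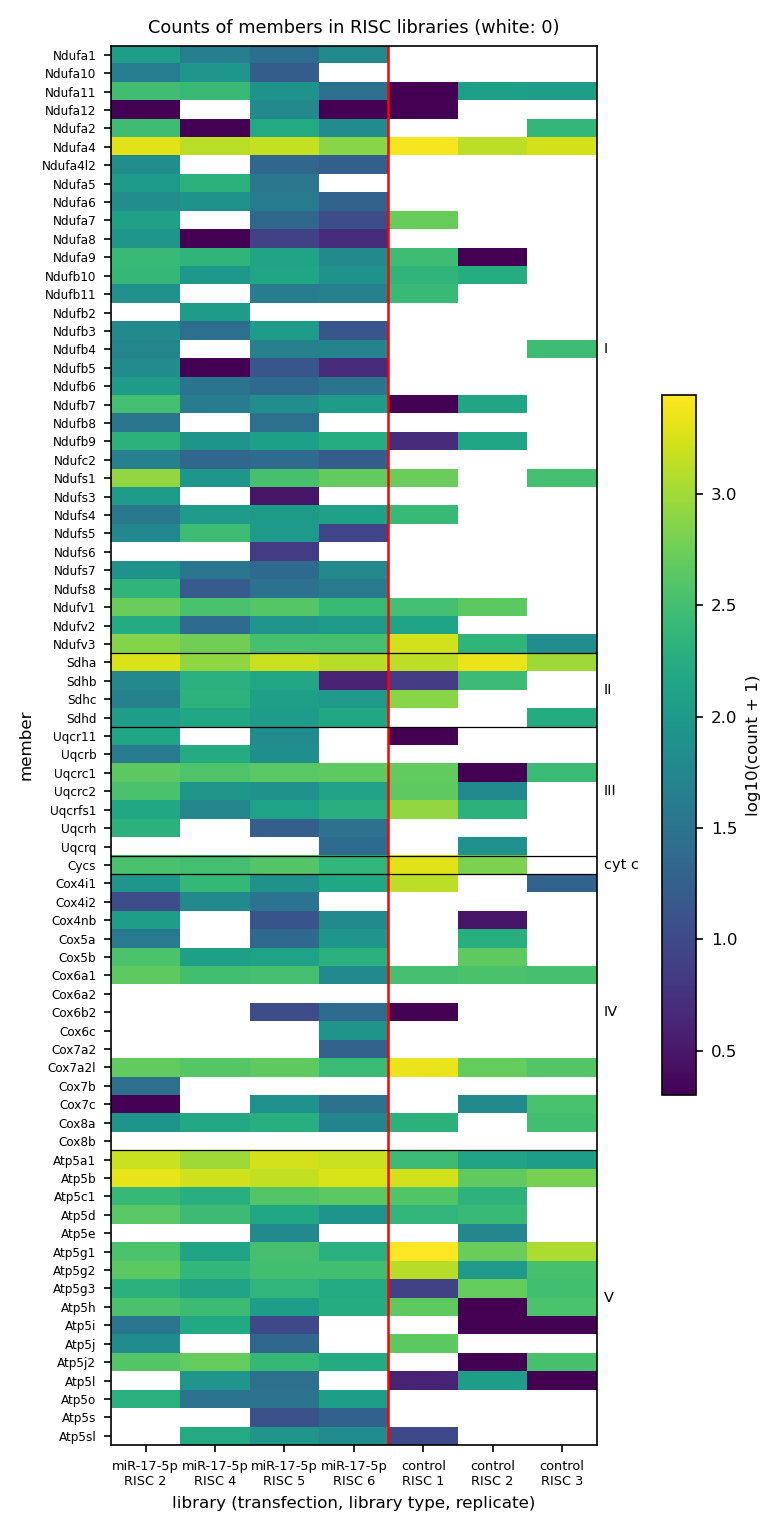
Counts of 76 members (rows, grouped by complex) in 4 miR-17-5p RISC libraries, left of the red line, and 3 control RISC libraries, right of it, as log10(count + 1), with white for a count of 0. The right side is white in all 3 libraries for 17 complex I rows, and the left side has fewer white cells.

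Atp5a1 was the 1 member called between the RISC groups, out of 58 tested, where 0.371% of all 9443 genes were called by edgeR. Atp5a1 encodes the alpha subunit, which forms the ring of F1 with the catalytic beta subunit. It had 1485, 971, 1677 and 1514 counts, or 116, 102, 188 and 252 CPM, in miR-17-5p RISC libraries 2, 4, 5 and 6, against 280, 137 and 114 counts, or 17.98, 17.57 and 21.4 CPM, in control RISC libraries. The groups stood well apart, at 164 ± 69.8 CPM with miR-17-5p and 19.0 ± 2.13 CPM with the control mimic (SD), and the log2 fold change was 3.11 (SE 0.45, adjusted p = 0.0257). The adjusted p ranged from 0.0355 to 0.101 over the fits that each left out 1 library, with a log2 fold change of 2.83 to 3.25. It was above 0.05 without control RISC library 1 (0.0683) and without miR-17-5p RISC libraries 2 (0.0995), 5 (0.101) and 6 (0.0804). With limma-voom it was 0.315. In mRNA libraries, Atp5a1 averaged 258 ± 29.9 CPM in miR-17-5p libraries and 278 ± 24.4 CPM in control libraries (adjusted p = 0.698 by edgeR). Among the markers of other cells in the same RISC fit, the smooth muscle actin gene Acta2 rose by 3.38 on the log2 scale (adjusted p = 0.0257) and the collagen gene Col1a1 by 2.35 (adjusted p = 0.0191).

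The number of members called between the RISC groups moved with the tool and the libraries. It was 13 with the Wald test of DESeq2 (11 higher, 2 lower), 0 with limma-voom, 5 without control RISC library 2, 8 without miR-17-5p RISC library 4, and 0 without control RISC library 1 or miR-17-5p RISC library 2, 5 or 6. At an unadjusted p under 0.05 by edgeR there were 18 of 58 members and 1899 of all 9443 genes. The median log2 fold change of the 58 was 0.55, against 0.27 over all genes, but -0.0457 with a mean of at least 50 counts and 2.92 with limma-voom, so it gives the members no direction. The 58 include 16 members at or under a mean of 3 counts per control library, which passed the filter on low counts through the miR-17-5p libraries alone. The median was 1.37, 1.66 and 0.93 without control RISC libraries 1, 2 and 3, and 0.10, 0.38 and 0.26 without miR-17-5p RISC libraries 2, 4 and 6.

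Atp5g1 and Cox7a2l ran the other way. Atp5g1, a gene for the c subunit of the membrane ring of ATP synthase, had 27.5, 14.1, 36.1 and 32.5 CPM in miR-17-5p RISC libraries 2, 4, 5 and 6, against 177, 68.0 and 212 CPM in control RISC libraries. The groups did not overlap, and the log2 fold change was -2.47 (SE 0.53, adjusted p = 0.0725 by edgeR). Without control RISC library 2 it was -2.82 and was called (adjusted p = 0.0327). Cox7a2l, which helps join complexes III and IV into supercomplexes, had 38.0, 42.5, 51.7 and 45.5 CPM in miR-17-5p RISC libraries, against 144, 64.8 and 75.6 CPM in control RISC libraries (log2 fold change -1.09, adjusted p = 0.227). Such an absence of overlap downward was found for 2 of the 58 members and 3.19% of all genes, and upward for 11 members and 17.8% of all genes. All of the 11 but Atp5a1 and Atp5b were at 0 in every control RISC library. They passed the filter on low counts through the miR-17-5p libraries alone, so they could not have lain lower, and their number gives no direction.

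Atp5b and Ndufa4 were well counted in every RISC library and were not called. Atp5b had 167, 173, 160 and 302 CPM in miR-17-5p RISC libraries, against 109, 61.3 and 118 CPM in control RISC libraries, so all 4 lay above all 3 (log2 fold change 1.07, adjusted p = 0.129 by edgeR). Ndufa4 had 157, 137, 163 and 127 CPM in miR-17-5p RISC libraries, against 159, 171 and 330 CPM in control RISC libraries, and the groups overlapped (log2 fold change -0.59, adjusted p = 0.382). Sdha had 143, 86.6, 171 and 210 CPM in miR-17-5p RISC libraries, against 87.2, 289 and 184 CPM in control RISC libraries, with wide overlap.

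**Figure D4:**
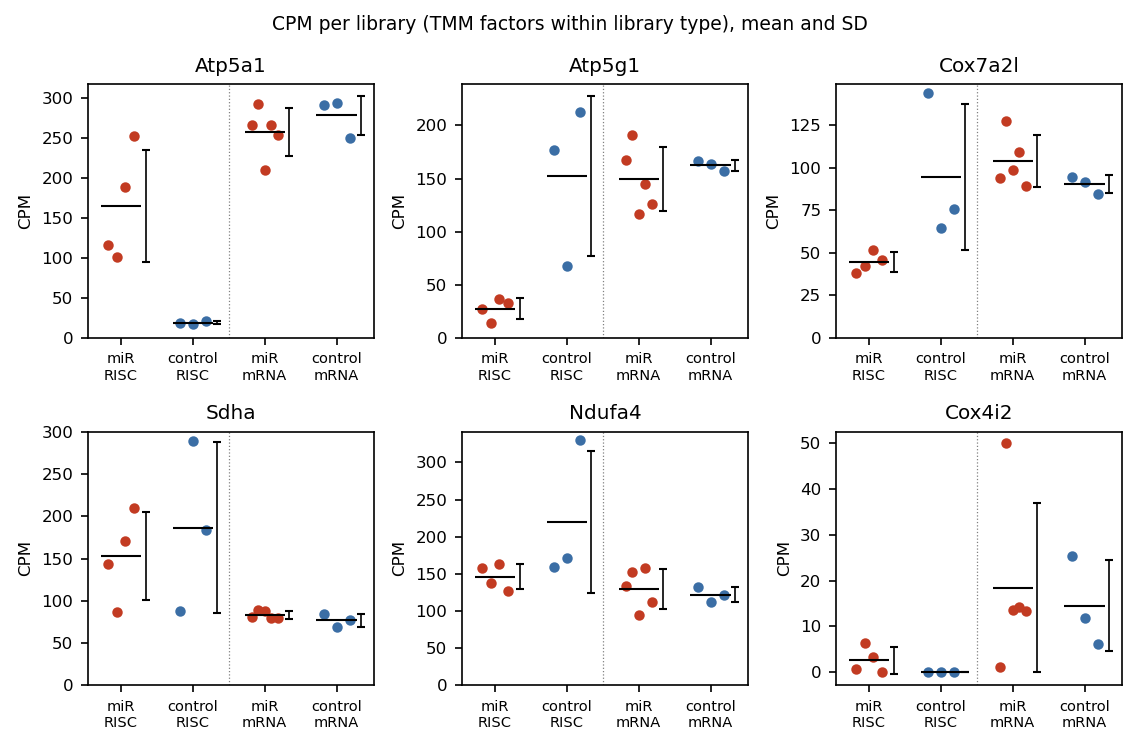
CPM of 6 members in every library (points, red for miR-17-5p and blue for control), with the mean (line) and SD (bar) of each of the 4 groups and TMM factors taken within each kind of library. Atp5a1 lies at 102 to 252 CPM in miR-17-5p RISC and 17.6 to 21.4 CPM in control RISC, and Atp5g1 shows the opposite order. In mRNA the groups overlap for both genes.

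Among the members tested in RISC, 16 were at or under a mean of 3 counts per library in control RISC, so their fitted folds have no meaning as sizes and a lower bound is given instead, from 3 counts per control library. Ndufs5, an accessory subunit near the membrane arm of complex I, had 57, 288, 96 and 8 counts in miR-17-5p RISC libraries and 0 in all control RISC libraries, at least 30.7-fold higher. Atp5o, the subunit that ties F1 to the stator stalk, had 194, 30, 30 and 110 counts against 0, at least 26.3-fold higher. The bound was 18.7-fold for Ndufs8 and 14.6-fold for Ndufs7, iron-sulfur subunits of the core of complex I. It was 17.5-fold for Ndufa1, 14.2-fold for Ndufb3, 13.9-fold for Ndufa6, 12.8-fold for Ndufb6 and 7.27-fold for Ndufc2, all accessory subunits of complex I. By edgeR the adjusted p was 0.0725 to 0.0726 for 7 of these 9 and 0.0741 and 0.0827 for Ndufs8 and Ndufs5, so none was called. In mRNA the same 9 genes had fold changes between -0.21 and 0.49 on the log2 scale, miR-17-5p over control.

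Whether the mimic's effect in RISC differed from that in mRNA was tested as a difference of the 2 effects in 1 model of all 15 libraries. By edgeR 21 of 76 members were called, 19 higher and 2 lower. Among all 11418 genes 13.4% were called, 13.03% higher and 0.394% lower. Of the 19, 13 belonged to complex I (of 34 tested), 3 to complex III (of 7) and 3 to complex V (of 16). Of the 2 lower members 1 belonged to complex IV and 1 to complex V. Atp5a1 had a difference of 3.21 on the log2 scale (SE 0.37, adjusted p = 9.1e-05), Atp5g1 one of -2.37 (SE 0.50, adjusted p = 0.00542) and Cox7a2l one of -1.32 (SE 0.37, adjusted p = 0.0285). The other 18 had 0 counts in every control RISC library, save Uqcr11 with 1 count and Atp5i with 2. At such counts these 18 could not have come out lower, so the 19 and their split by complex give no direction. For Uqcr11, a small subunit of complex III, pooled counts in RISC gave a ratio of 160 of miR-17-5p over control, with a 95% counting interval of 28.4 to 6349, and for Atp5i, the e subunit of ATP synthase, a ratio of 78.4 (21.4 to 652). These intervals cover counting error only, and both genes were at 0 in some miR-17-5p RISC libraries. The count of 21 was 27 with the Wald test of DESeq2, 0 with limma-voom, 1 with the replicate number as a block and 16 to 28 when 1 library was left out.

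The call for Cox7a2l was the least steady of the 3. Without control RISC library 1, which had 2239 of the 3146 control RISC counts of this gene, its difference was -0.62 (adjusted p = 0.155 by edgeR), and it was also above the threshold without 1 of miR-17-5p RISC libraries 2, 4 and 5, miR-17-5p mRNA libraries 2 and 5, or control mRNA libraries 1, 2 and 3 (adjusted p = 0.0522 to 0.114). Atp5a1 was called in each fit that left out 1 library, its difference lying at 2.92 to 3.60. Atp5g1 was also called in each of these fits, its difference lying at -2.49 to -1.90. With limma-voom none of the 3 was called (adjusted p = 0.405 each), and with the replicate block only Atp5a1 was (adjusted p = 0.0177).

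Within miR-17-5p cells nearly all members were scarcer in RISC than in mRNA. Of 76 members tested 66 were lower and 0 higher by edgeR, where 21.8% of all 10871 genes were lower and 21.7% higher. The median log2 fold change, RISC over mRNA, was -3.03 against -0.15 over all genes. Lower members made up 30 of 34 in complex I, 3 of 4 in complex II, 7 of 7 in complex III, the cytochrome c gene, 11 of 14 in complex IV and 14 of 16 in complex V, with medians of -3.39, -2.24, -3.36, -0.75, -3.16 and -2.75. The count was 63 to 69 with 1 library left out. The ribosomal proteins of the cytosol behaved alike, with 72 of 74 lower (median -4.10), and those of mitochondria less so, with 39 of 67 lower (median -2.22), a contrast that was not tested.

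The depth of the decrease varied widely between subunits of the same enzyme. In complex V, Atp5b fell by 1.67 on the log2 scale, at 173 ± 52.4 CPM in RISC and 550 ± 53.2 in mRNA, and Atp5a1 fell by 0.95, at 142 ± 58.9 and 274 ± 31.4 CPM (adjusted p = 0.00894 by edgeR). The 3 genes for the c subunit, whose mature proteins are known to be the same, fell by 2.73 (Atp5g1), 2.77 (Atp5g2) and 1.69 (Atp5g3). Atp5h, of the peripheral stalk, fell by 3.02. In complex III the core subunit Uqcrc1 fell by 1.31 and the Rieske iron-sulfur protein Uqcrfs1 by 1.58, while Uqcrq, a small subunit, fell by 7.88 and had 24 RISC counts in all, in 1 library of 4. In complex IV, Cox7a2l fell by 1.52, Cox6a1 by 2.95, Cox8a by 3.24 and Cox4i1 by 4.04, the last at 14.2 ± 8.16 CPM in RISC and 233 ± 20.4 in mRNA.

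In complex I the same held. Ndufv1, which binds FMN and takes the electrons from NADH, fell by 1.04, at 36.05 ± 4.47 CPM in RISC and 74.3 ± 11.0 in mRNA. Ndufv3, an accessory subunit near Ndufv1, fell by 1.78. Ndufb10 fell by 2.80, Ndufa6 by 3.98 and Ndufb8 by 6.61. Ndufb8 had 33, 0, 28 and 0 counts in miR-17-5p RISC libraries 2, 4, 5 and 6, while it had 684 to 2111 counts in the miR-17-5p mRNA libraries. Each of these falls was past the threshold by edgeR.

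The 10 members not called lower were Sdha, Ndufs1, Ndufa4, Ndufa4l2, Ndufa10, Cox5a, Cox6b2, Cox4nb, Atp5s and Atp5sl, of which Sdha, Ndufs1 and Atp5s lay above 0 and Ndufa4 close to it. Sdha had 126, 72.6, 157 and 175 CPM in miR-17-5p RISC libraries 2, 4, 5 and 6, against 86.9, 94.7, 93.9, 84.1 and 85.2 CPM in mRNA libraries 1, 2, 4, 5 and 6, with a log2 fold change of 0.58 (SE 0.22, adjusted p = 0.0518 by edgeR). Library 4 alone lay below the mRNA libraries, and without it the value was 0.78 and called (adjusted p = 0.00129). It was also called with a mean of at least 50 counts, without Rn45s and the insulin genes, and with limma-voom (adjusted p = 0.0455, 0.031 and 0.00452), so that over its alternatives the adjusted p spanned 0.00129 to 0.17. The other subunits of complex II, in contrast, fell by 3.03 (Sdhb, the iron-sulfur subunit), 2.65 (Sdhc) and 1.82 (Sdhd). Ndufs1, the largest core subunit of complex I, had 59.3, 7.71, 34.8 and 66.5 CPM in RISC libraries and 22.5 to 30.9 CPM (median 30.6) in mRNA libraries (log2 fold change 0.54, adjusted p = 0.375). Without RISC library 4 it was 0.88 and called (adjusted p = 0.01). Ndufa4 had 138, 115, 150 and 105 CPM in RISC libraries and 100 to 167 CPM (median 143) in mRNA libraries, a difference of -0.12 (adjusted p = 0.635). Ranked among all genes by this fold change, 69.2% lay below Sdha, 68.2% below Ndufs1, 50.7% below Ndufa4, 36.1% below Cycs and 31.7% below Atp5a1. Sdha overlaps another gene in the annotation, and without strand its reads cannot be told from those of that gene.

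In control cells members were lower in RISC as well, with far fewer counts to measure it. By edgeR 33 of 74 members tested were lower and 0 higher, where 22.3% of all 10170 genes were lower and 5.96% higher. The lower members were 19 of 34 in complex I, 0 of 4 in complex II, 3 of 7 in complex III, 6 of 12 in complex IV and 5 of 16 in complex V. The median log2 fold change was -4.31 against -0.69 over all genes, or -3.92 with the 30 members at or under 3 counts per RISC library set at their bound. Those 30 members, and 2063 of all 10170 genes, passed the filter through the mRNA libraries and could only have come out lower. Atp5a1 had 16.4, 15.5 and 19.1 CPM in control RISC libraries, against 354, 359 and 301 CPM in control mRNA libraries, a fall by 4.31 on the log2 scale (adjusted p = 0.00365). Atp5b had 98.9, 54.2 and 105 CPM in RISC, against 613, 616 and 563 CPM in mRNA, a fall by 2.80 (adjusted p = 0.00791). Cox6a1 fell by 2.09 (adjusted p = 0.0239), and this call was lost when any 1 of the 3 control mRNA libraries was left out.

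Of the other lower members, Ndufb8 had 0 counts in all control RISC libraries and 1412, 962 and 406 counts in the control mRNA libraries, at least 452-fold lower, and Ndufa1 was at least 324-fold lower. The count of 33 was 13, 13 and 17 without control mRNA libraries 1, 2 and 3, and 41 to 45 without 1 control RISC library. It was 40 with the Wald test of DESeq2, 55 with limma-voom and 9 with the replicate block. Above 0 were Sdha (166 ± 88.3 CPM in RISC and 93.2 ± 9.27 in mRNA, log2 fold change 0.84, adjusted p = 0.281), Ndufa4 (197 ± 84.3 and 148 ± 11.8 CPM, 0.41, adjusted p = 0.524) and Cycs (63.8 ± 58.8 and 57.3 ± 5.02 CPM, 0.16). None of the 3 was called, and without control RISC library 1 Sdha was (1.17, adjusted p = 0.0283). Without control RISC library 3 the value for Ndufa4 was -0.0053.

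**Figure D5:**
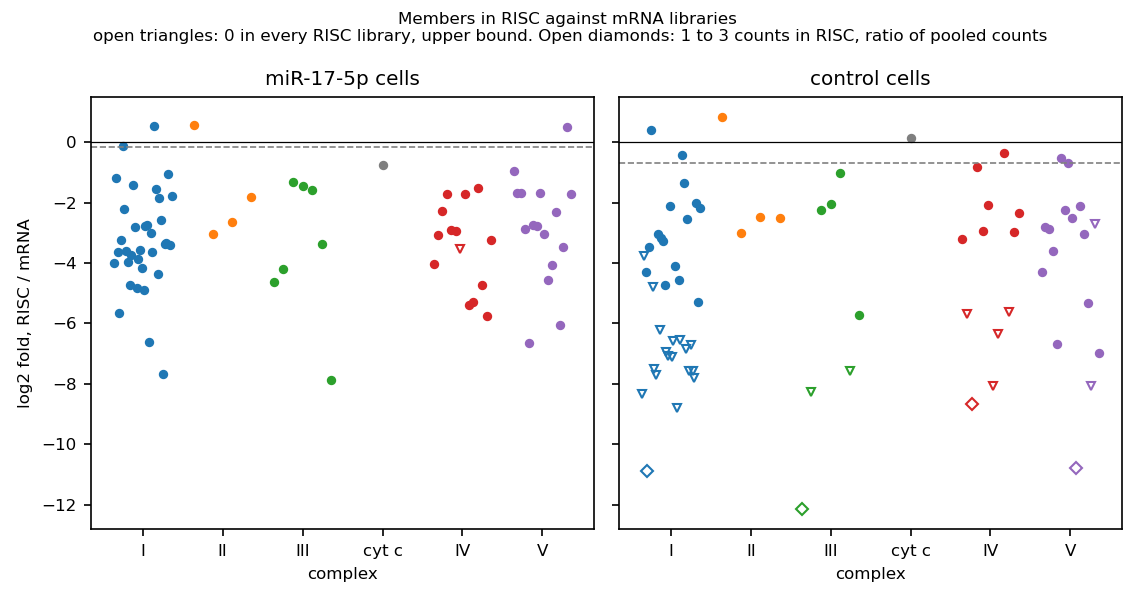
Log2 fold change of each member, RISC over mRNA (y axis), by complex (x axis), in miR-17-5p cells (left, 76 members) and control cells (right, 74 members), with a dashed line at the median of all genes. Open triangles mark members at 0 in every RISC library, drawn at an upper bound, and open diamonds those with 1 to 3 RISC counts, drawn at the ratio of pooled counts, and 3 members lie above 0 in each panel.

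The 2 comparisons of RISC with mRNA use separate libraries, so their calls can be set side by side. Of 74 members tested in both, 65 were lower in miR-17-5p cells and 33 in control cells, and 29 were lower in both. These are 44.6% of the miR-17-5p list, where 44.6% of all 74 were lower in control cells, and 87.9% of the control list, where 87.8% of all 74 were lower in miR-17-5p cells, so the overlap adds nothing to the separate counts. Sdha lay above 0 and Ndufa4 near or above 0 in both, while Atp5a1 fell by 0.95 in miR-17-5p cells and by 4.31 in control cells. Atp5g1 fell by 2.73 in miR-17-5p cells and had a log2 fold change of -0.53 in control cells (adjusted p = 0.535 by edgeR). Cox7a2l fell by 1.52 in miR-17-5p cells and had -0.37 in control cells (adjusted p = 0.644). The tests of these contrasts are the differences of effects given above for Atp5a1, Atp5g1 and Cox7a2l.

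Tissue-restricted isoforms were rare or missing in RISC. Cox6a2 and Cox8b, the heart and skeletal muscle forms, were at 0 in all 7 RISC libraries, and Cox8c, named as a testis form, was at 0 in all 15 libraries. In mRNA, Cox6a2 had 0.054 to 6.28 CPM in miR-17-5p libraries and 0 to 3.35 CPM in control libraries. Cox8b had 0 to 1.52 and 0 to 0.312 CPM in that order, so it was near 0 in mRNA too. Cox6b2 had 34 counts over the miR-17-5p RISC libraries and 1 over the control ones. In miR-17-5p cells Cox6b2 averaged 1.09 CPM in RISC and 3.52 CPM in mRNA (adjusted p = 0.37 by edgeR). Cox4i2 had 0.780, 6.48, 3.37 and 0 CPM in miR-17-5p RISC libraries and was at 0 in control RISC libraries. Ndufa4l2 had 5.69, 0, 2.36 and 2.83 CPM in miR-17-5p RISC libraries and was also at 0 in control RISC libraries, unlike Ndufa4. Further members at 0 in all 15 libraries were Atp5f1, Cox6c-ps1 and Ndufa10l1, for which the tables hold no value to describe.

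Genes that build, feed or regulate the chain were not uniformly scarce in RISC of miR-17-5p cells. The counts stand beside 21.8% of all 10871 genes tested that were lower and 21.7% that were higher. Of 28 assembly factors 10 were lower and 1 was higher, Coa5, which is needed for complex IV (log2 fold change 0.78, adjusted p = 0.0123 by edgeR). Of 17 genes of the citric acid cycle and pyruvate dehydrogenase 6 were lower and 2 higher (median -0.24), the higher ones being Dlat and Pdhx, the E2 core and the E3-binding protein of pyruvate dehydrogenase (1.13 and 1.23), and Mdh2 and Suclg1 among the lower (-1.97 and -1.72). Of 17 biogenesis regulators 5 were higher and 3 lower (median 0.35): the coactivator Ppargc1b rose by 3.41, the receptor Esrrg by 2.96 and Yy1 by 1.83, and the receptor Esrra fell by 3.22. Coa5, Pdhx and Esrra were chosen after their values were seen. Of 10 carriers and uncoupling proteins 9 were lower (median -1.63), among them Vdac3 (-4.97), Slc25a4, the ADP/ATP carrier of muscle-type tissue (-1.55), and Etfb (-3.35). Cyc1 fell by 1.98, Ndufab1 by 4.31 and Atpif1, the inhibitor of ATP synthase, by 3.82. Of 9 endocrine markers 8 were lower, with Ins1 at -5.12. In control cells 22.3% of all 10170 genes tested were lower and 5.96% higher by edgeR. Lower there were 17 of 27 assembly factors, 32 of 66 mitochondrial and 33 of 73 cytosolic ribosomal proteins, 3 of 16 biogenesis regulators and 6 of 9 endocrine markers. At or under a mean of 3 counts per control RISC library were 18 of these assembly factors and 4 of the regulators. So were 33 of the mitochondrial and 13 of the cytosolic ribosomal proteins, and such genes could only have come out lower. By the same test 0 of 17 citric acid cycle genes and 0 of 10 carriers were called. At an unadjusted p under 0.05 there were 0 of either list and 3516 of all 10170 genes.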

How the data were processed

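Per the labels' protocols, total RNA was extracted with Trizol, poly(A) RNA was selected for mRNA libraries and an antibody against Ago2 was used for RISC libraries, and single-end libraries without strand information were sequenced. The deposited values are raw counts of reads per gene. Per the submitters' processing notes, TopHat2 (version 2.0.10), Bowtie2, HTSeq, DESeq and edgeR were used with the rat build rn5. From 15.0% to 31.2% of reads were recorded as not uniquely aligned and 0.151% to 0.454% as ambiguous, and these rows stayed out of totals and tests. Genes with near-identical copies, such as Atp5g1, Cycs and Cox6c, and the 29 members that overlap another gene on GRCr8 have uncertain counts, since their reads may be lost or shared. Replicate numbers are those of the sample titles. The labels' description fields number replicates otherwise, and nothing says that libraries of a group came from separate animals, so p-values reflect only how far these libraries vary, and that variation may be technical.

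Counts were tested with edgeR 4.0.16 in R 4.3.3 (TMM factors, filterByExpr, robust quasi-likelihood F test), 1 fit per comparison over all genes, with Benjamini-Hochberg adjustment over all genes and a threshold of 0.05. The 5 comparisons were miR-17-5p over control in mRNA and in RISC, the difference of these effects in 1 fit of 15 libraries, and RISC over mRNA in miR-17-5p and in control cells. CPM use the TMM factors of the comparison at hand, so a library's CPM differs between comparisons. Alternatives were DESeq2 1.42.0, limma-voom with quality weights (limma 3.58.1), other scalings and filters, a replicate block and leaving out each library. A gene at 0 in every library of a group was given a bound from 3 counts per library, and a gene with 1 to 3 counts an exact 95% interval of the ratio of pooled counts. Such floors and intervals cover counting error only. Fits were also run on simulated counts with known fold changes, drawn from a pooled mean and a spread per gene. That simulation was not set to copy the patchy control RISC counts, so nothing is drawn from it here. No pair of libraries of the same group agreed within sampling noise. Python 3.11.15, pandas 2.3.3, scipy 1.17.1 and matplotlib 3.10.9 did the rest.

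The members and all gene lists were chosen with earlier results of these data known. Genes named are the members called (up to 10 per direction), the 2 with the smallest p in each complex, fixed core subunits and isoform sets, and, in the other lists, those called (up to 4 each) and a few fixed regulators. Other genes named complete a short count, carry a gene into another comparison or were chosen after their values were seen. Values of 1 member are not reported here.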

Additional observations from a re-analysis of the deposited data

Results flagged for a closer look

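Among the members tested in mRNA (76) and RISC (58), single miR-17-5p libraries lay far from the rest of their group, by a rule that flags about 1 in 20 groups by chance. In miR-17-5p mRNA library 2, Atp5b (606.8 CPM), Cox4i2 (49.94 CPM), Cox5b (198.5 CPM) and Cox7b (22.40 CPM) were high, and Ndufs1 (21.24 CPM) and Uqcrfs1 (25.32 CPM) were low. In miR-17-5p mRNA library 6 Ndufs4 was low at 30.85 CPM. In RISC of miR-17-5p cells, Atp5b was high (302.1 CPM) and Cox6a1 low (10.17 CPM) in library 6, Atp5h was low in library 5 (12.57 CPM) and Atp5j2 high in library 4 (52.81 CPM).

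By edgeR's test of the difference itself, the effect of the mimic was called different between RISC and mRNA for 21 of 76 members. Of all 11418 genes tested, 13.4% were called. The count of members depended on the tool and on the replicate block, as given elsewhere in this report. On the log2 scale the fitted differences were 3.205 for Atp5a1, -2.374 for Atp5g1 and -1.319 for Cox7a2l. From ratios of pooled counts they were 6.249 for Atp5i and 7.596 for Uqcr11, which had 2 counts and 1 count in control RISC. For the others, at 0 in control RISC, the difference was at least 4.860 for Ndufs5, 4.495 for Atp5o, 4.306 for Ndufs8, 4.226 for Ndufa1, 4.079 for Ndufs7 and 4.018 for Uqcrh. It was at least 3.907 for Uqcrb, 3.739 for Ndufa5, 3.662 for Ndufb6, 3.582 for Ndufa6 and 3.338 for Ndufb3. The remaining bounds were 2.785 for Ndufc2, 2.421 for Ndufa10, 2.279 for Ndufa8, 1.945 for Ndufb5 and 1.924 for Ndufb8.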

How the results depend on the processing

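Members called between mRNA groups numbered 0, and 1 with no filter, with a mean of at least 50 counts or with the DESeq2 Wald test, and 0 to 1 with 1 library left out. Between RISC groups the 1 call became 13 with DESeq2, 0 with limma-voom and 0 to 8 with 1 library left out. The RISC median of 0.55 was 1.07 with no filter, -0.0457 with a mean of at least 50 counts, 2.92 with limma-voom and 0.10 to 1.66 with 1 library left out. For the difference of effects, the 21 calls became 0 with limma-voom and 16 to 28 with 1 library left out. The median of 0.89, against 0.40 over all genes, became 2.74 with limma-voom and 0.69 to 3.499 with 1 library left out. This median includes fitted values of members at 0 in control RISC, which have no meaning as sizes. In control cells, RISC over mRNA, the 33 calls became 55 with limma-voom and 13 to 45 with 1 library left out. The median of -4.31 became -3.88 with a mean of at least 50 counts, -7.34 with limma-voom and -7.02 to -4.27 with 1 library left out. The log2 fold change of Ndufa4 in control cells was 0.41, and -0.0053 to 0.58 with 1 library left out, negative without control RISC replicate 3. Over the 58 members tested in RISC, of which 16 were at or under a mean of 3 counts per control library, the mean log2 CPM of control RISC was 1.197 with 2 counts added and 0.17 with 0.5. In miR-17-5p cells, counts of calls were 63 to 69 and medians -3.12 to -2.99 with 1 library left out. The cause of these shifts was not tested.

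Over genes, the deviations of libraries that share a replicate number had correlations of -0.24 to 0.0614. With so few and such variable libraries per group, these values cannot show whether the numbers pair them. With the replicate number as a block, the difference had 1 call and a median of 2.88, control cells 9 calls and a median of -8.66, and miR-17-5p cells 63 calls and a median of -3.45. No paired analysis was possible for the RISC groups because they share only the number 2. Thinned to 3379456 counts, the total of control mRNA library 3, control RISC libraries held a mean of 29.4 members, where that mRNA library held 75. The biological coefficient of variation, common to both mimics, was 1.23 in the RISC fit and 0.305 in the mRNA fit.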
